A study of Mus musculus with 6 samples.

Results

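The 10 genes described here encode interferon-gamma-induced GTPases of the mouse. They are 6 guanylate-binding proteins (GBPs; Gbp2, Gbp3, Gbp4, Gbp5, Gbp6 and Gbp7) and 4 immunity-related GTPases (IRGs; Igtp, also called Irgm3, Irgm1, Irgm2, and Iigp1, also called Irga6). They were picked by symbol out of 24054 genes in a table of TPM values, and all 10 were found in it. The choice was made with earlier results of these data known. TPM values are transcript levels scaled to transcript length and to a common total per library. RNA-seq had been run on c-Kit+ splenocytes collected with beads against CD117, the receptor tyrosine kinase c-Kit of blood stem and progenitor cells, with 1 library per mouse. The 3 AML mice (acute myeloid leukaemia) were moribund and had the genotype Flt3ITD/ITD, Dnmt3afl/- with MxCre. The 3 MPN mice (myeloproliferative neoplasm) were the controls and had the genotype Flt3ITD/ITD, Dnmt3afl/fl, with no Cre named in their titles. Both groups thus carried an internal tandem duplication on each allele of Flt3, a cytokine receptor of early blood cells. Genotype at Dnmt3a (a de novo DNA methyltransferase), Cre and disease state differed together and cannot be told apart. MxCre is Cre recombinase driven by the promoter of Mx1, itself an interferon-inducible GTPase gene, and the labels name neither an inducing agent nor ages.

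Interferon-gamma is made mainly by T cells and natural killer (NK) cells. It binds a receptor of 2 chains, Ifngr1 and Ifngr2, whose kinases Jak1 and Jak2 start a signal that reaches GAS elements in DNA. The response also raises the transcription factor Irf1, which binds ISRE elements. Both kinds of element are found at many GBP and IRG genes. GBPs coat microbes and the vacuoles they live in and help to start inflammasome responses. Among IRGs, Iigp1 is an effector that attacks such vacuoles, while Irgm1, Irgm2 and Igtp sit on the cell's own membranes and keep the effectors inactive there. In mice, Irgm1 is also known to be needed for the normal function of blood stem cells.

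The sequence before the annotated starts shows these elements. RefSeq promoter windows on GRCm38.p6, running from 250 bases before a start to 50 after it, were matched by symbol for 7 of the 10 genes; Gbp4, Gbp6 and Iigp1 were not matched. The part from 120 bases before the start up to it is shown for 5 genes, 2 that fell in AML (Irgm1, Irgm2) and 3 that did not pass the test (Igtp, Gbp2, Gbp7). They stand 5′ to 3′ on the gene's own strand, with GAS (TTCNNNGAA) and ISRE (GAAA, any 2 bases, GAAA) in capitals. Both strands were searched, and an ISRE on the opposite strand appears as its reverse complement (TTTC, any 2 bases, TTTC).
Irgm1: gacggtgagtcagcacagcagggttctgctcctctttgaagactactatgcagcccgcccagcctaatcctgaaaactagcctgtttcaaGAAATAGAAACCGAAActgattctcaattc
Irgm2: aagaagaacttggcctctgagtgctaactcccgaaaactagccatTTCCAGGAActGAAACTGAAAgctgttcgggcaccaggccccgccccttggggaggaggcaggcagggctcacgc
Igtp: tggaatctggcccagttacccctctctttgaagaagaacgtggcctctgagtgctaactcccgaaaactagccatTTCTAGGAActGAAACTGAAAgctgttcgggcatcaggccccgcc
Gbp2: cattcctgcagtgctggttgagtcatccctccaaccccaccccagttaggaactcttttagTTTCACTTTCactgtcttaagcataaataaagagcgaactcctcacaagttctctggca
Gbp7: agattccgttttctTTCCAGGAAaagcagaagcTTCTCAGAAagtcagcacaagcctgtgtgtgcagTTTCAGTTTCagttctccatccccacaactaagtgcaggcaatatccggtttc

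These stretches lie at chr11:48871421-48871540 on the minus strand for Irgm1, and on the plus strand at chr11:58214857-58214976 for Irgm2, chr11:58199436-58199555 for Igtp, chr3:142620543-142620662 for Gbp2 and chr3:142530216-142530335 for Gbp7. The Irgm1 stretch held 2 ISREs that overlap each other, starting at -30 and -24 from the start site, and no GAS. Igtp and Irgm2 each held a GAS just before an ISRE, at -45 and -34 in Igtp and at -75 and -64 in Irgm2. Their 300-base windows share an identical run of 61 bases, which starts after both motifs, at -11 in Igtp and -41 in Irgm2. Gbp7 held 2 GAS, at -106 and -87, and an ISRE at -53, while Gbp2 held an ISRE at -59. Over the full windows, an ISRE was found in 7 of 7 genes and a GAS in 4 of 7 (Gbp5, Gbp7, Igtp and Irgm2), against 3.44% and 8.30% of all 32851 windows in the reference table. Both motifs together were in 4 of 7 genes and in 0.454% of all windows. The windows with both motifs belonged to 1 gene that fell in AML, Irgm2, and to 3 that did not pass. A match describes letters, not binding.

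In AML, 5 of the 10 genes fell: Gbp4, Gbp6, Irgm1, Irgm2 and Iigp1. None rose, and Gbp2, Gbp3, Gbp5, Gbp7 and Igtp did not pass the test. The test was limma on log2(TPM + 1) over 12223 genes, two-sided, with p-values adjusted by the Benjamini-Hochberg method over all of them and a threshold of 0.05. Of all tested genes, 10% were lower in AML and 20.1% higher, 30.1% in all. The same 5 genes had all AML mice below all MPN mice, which held for 16.1% of tested genes, and none had all AML mice above, which held for 34.8%; for 50.9% the groups did not overlap in either direction. The median log2 fold change (AML over MPN) of the 10 was -1.57, beside 0.13 over all tested genes. Gbp4 and Gbp6 passed the filter on low values (1 TPM in 3 libraries) through the MPN mice alone, so a difference was built into their passing. At an unadjusted limma p under 0.05, 7 genes were lower and again 0 higher, beside 1806 lower and 3520 higher of all 12223 tested genes. These are bulk samples, in which fewer cells of a type and less RNA per cell cannot be told apart.

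**Figure D1:**
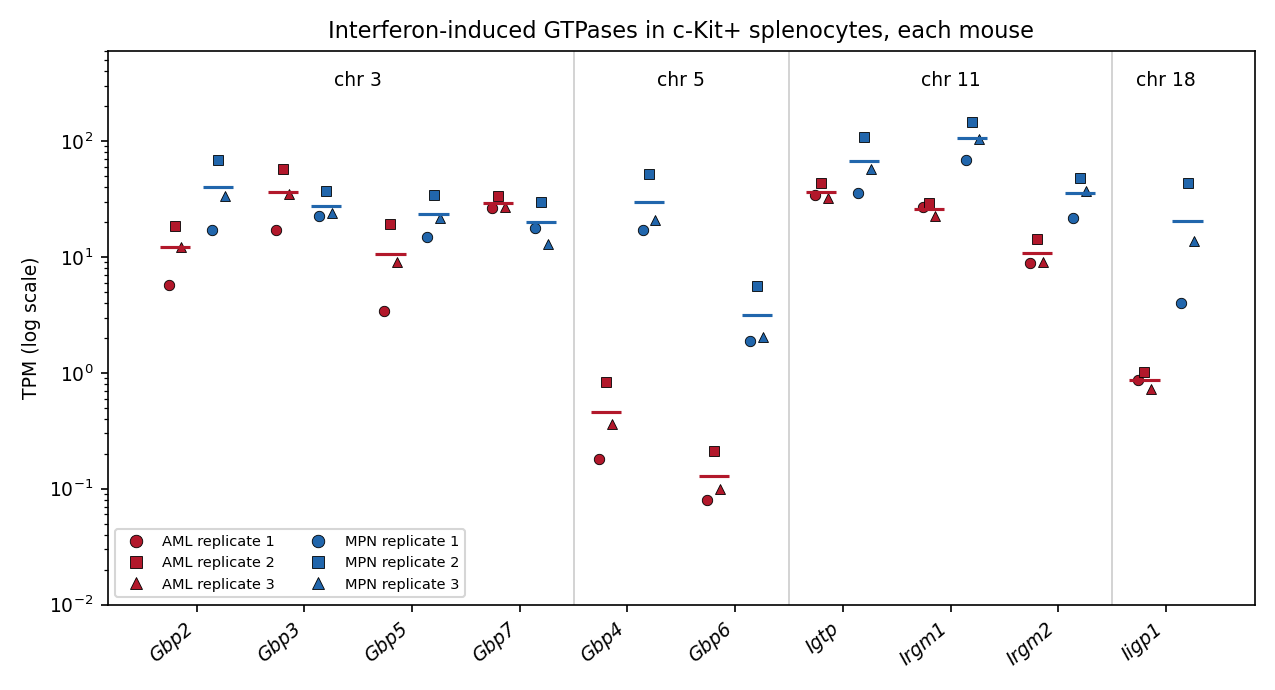
TPM of the 10 GTPase genes in each mouse on a log axis, with AML mice left of MPN mice and a bar at each group's mean. Gbp4, Gbp6, Irgm1, Irgm2 and Iigp1 have all AML points below all MPN points, while the other 5 genes overlap.

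Among the GBPs of chromosome 5, Gbp4 had 0.18, 0.83 and 0.36 TPM in the AML mice, against 17.0, 51.6 and 20.8 TPM in the MPN mice. The groups were far apart, and the AML mean was 1.53% of the MPN mean. Its log2 fold change was -4.26 ± 0.40 (SE; limma adjusted p = 0.000567). Gbp6 was a low transcript, with 0.08, 0.21 and 0.10 TPM in the AML mice, against 1.87, 5.63 and 2.04 TPM in the MPN mice. No AML mouse came near an MPN mouse, and the log2 fold change was -1.78 ± 0.33 (limma adjusted p = 0.00733). That call ended in a fit with a term for sex (limma adjusted p = 0.0606). The pseudocount of 1 shrinks the fold of so low a gene, whose AML mean was 4.09% of the MPN mean. Gbp6 values are uncertain in another way too, since 86.0% of the 75-base windows of its longest coding transcript also occur in the annotated copy Gm43302.

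The GBPs of chromosome 3 gave a different picture. Gbp2 had 5.77, 18.5 and 12.2 TPM in AML mice, against 17.1, 68.8 and 33.3 TPM in MPN mice. The highest AML mouse lay just above the lowest MPN mouse, and the log2 fold change of -1.54 ± 0.54 did not pass (limma adjusted p = 0.0671). Gbp5, which in mice promotes the NLRP3 inflammasome, had 3.41, 19.1 and 9.11 TPM in AML mice, against 14.8, 34.3 and 21.4 TPM in MPN mice. AML replicate 2 reached into the MPN range, and the log2 fold change was -1.27 ± 0.54 (limma adjusted p = 0.114). Without AML replicate 2 it passed (log2 fold change -1.80, limma adjusted p = 0.0345).

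Gbp3 had 16.9, 57.2 and 34.6 TPM in AML mice, against 22.5, 36.9 and 23.7 TPM in MPN mice, so the AML mice spanned the whole MPN range. Its log2 fold change was 0.25 ± 0.41 (limma adjusted p = 0.662), and it was -0.15 without AML replicate 2. Gbp7 had 26.5, 33.8 and 27.0 TPM in AML mice, against 17.7, 29.9 and 12.9 TPM in MPN mice. MPN replicates 1 and 3 lay below every AML mouse and replicate 2 lay among them, with a log2 fold change of 0.58 ± 0.28 (limma adjusted p = 0.157). Without MPN replicate 2, Gbp7 rose in AML (log2 fold change 0.89, limma adjusted p = 0.0361).

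The makeup of the GBP transcripts differed between the groups. Gbp4 and Gbp6 made up 0.492%, 0.802% and 0.553% of the summed TPM of the 6 GBPs in the AML mice, against 20.7%, 25.2% and 20.04% in the MPN mice. The summed TPM of the 4 chromosome 3 GBPs was 52.6, 129 and 82.8 in AML mice, against 72.0, 170 and 91.3 in MPN mice. The share separated the groups without overlap, and the chromosome 3 sum did not. The share restates the levels of Gbp4 and Gbp6 given above, which passed the filter through the MPN mice alone. The split by chromosome was made after values were seen.

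Irgm1 had 26.8, 29.2 and 22.5 TPM in AML mice, against 68.4, 145 and 103 TPM in MPN mice. Its mean was 26.1 ± 3.40 TPM in AML and 106 ± 38.5 TPM in MPN (SD, n = 3 each), and the log2 fold change was -1.92 ± 0.26 (limma adjusted p = 0.00234). Irgm2 had 8.79, 14.4 and 9.03 TPM in AML mice, against 21.8, 47.6 and 37.0 TPM in MPN mice. Again no AML mouse reached the MPN mice, and the log2 fold change was -1.60 ± 0.31 (limma adjusted p = 0.00863). Irgm1, Irgm2 and Gbp4 fell under all 16 alternative settings.

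Igtp, the third IRGM gene, had 34.3, 43.1 and 32.4 TPM in AML mice, against 35.7, 108 and 57.2 TPM in MPN mice. MPN replicate 1 lay among the AML mice, and the log2 fold change of -0.72 ± 0.36 did not pass (limma adjusted p = 0.164). Without that mouse, Igtp fell (log2 fold change -1.10, limma adjusted p = 0.0415). The annotated spans of Igtp and Irgm2 overlap and 8.37% of the 75-base windows of Igtp occur in Irgm2, so reads could be split between the pair. Their summed TPM was 43.1, 57.4 and 41.4 in AML mice, against 57.5, 156 and 94.2 in MPN mice, so the groups all but met.

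Iigp1, the effector, had 0.87, 1.02 and 0.72 TPM in AML mice, against 4.03, 43.5 and 13.7 TPM in MPN mice. It was uniformly low in AML and spread over a 10.8-fold range in MPN. The log2 fold change was -2.99 ± 0.68 (limma adjusted p = 0.0165). The call ended without MPN replicate 3 (limma adjusted p = 0.0639) and with a term for sex (limma adjusted p = 0.106). No annotated transcript of another gene shared a 75-base window with Iigp1 or with Irgm1.

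**Figure D2:**
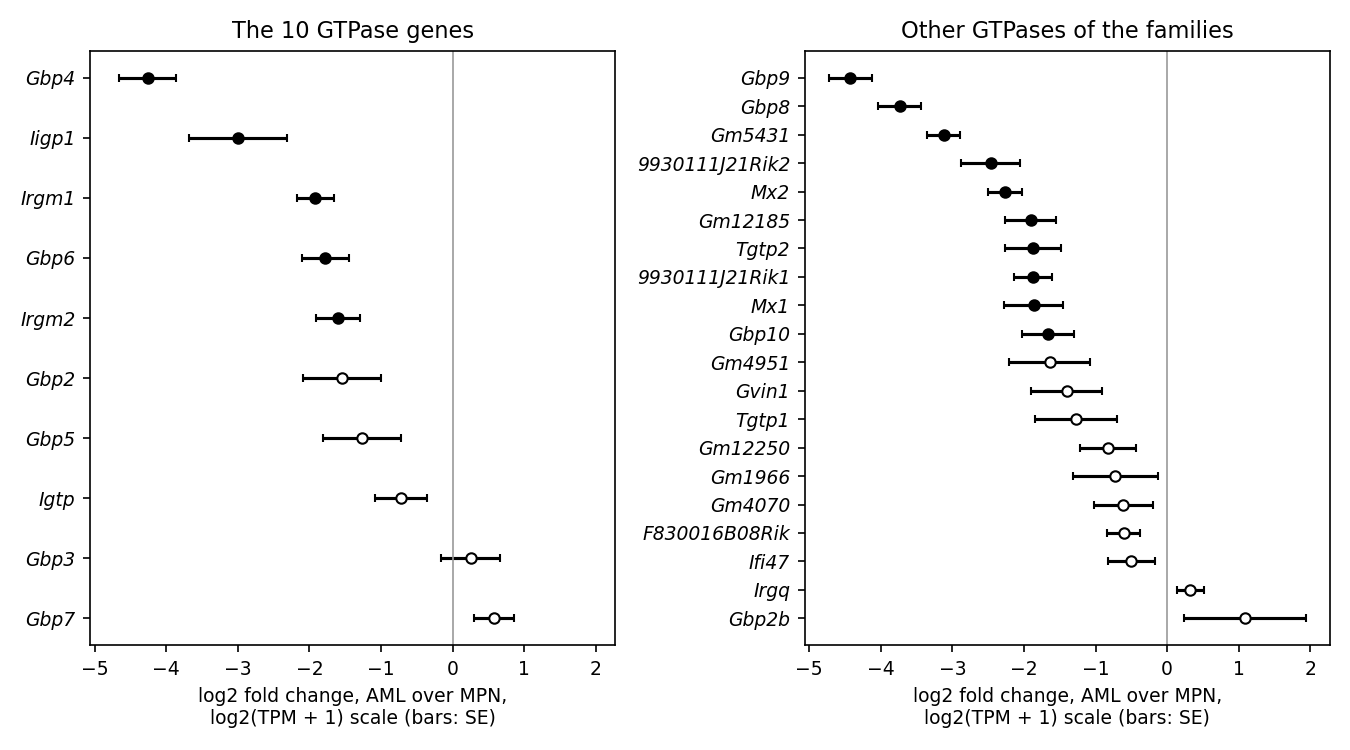
Log2 fold change (AML over MPN, on the log2(TPM + 1) scale) of the GTPase genes and of their relatives, with bars for the SE and filled points for an adjusted p under 0.05. Gbp4 at -4.26 is the lowest of the 10 and Gbp9 at -4.42 the lowest of the relatives; no filled point lies above 0.

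For a single gene, an exact two-sided permutation test over the 20 splits of 6 mice cannot give a p below 0.1. The 5 genes whose groups did not overlap each gave 0.1. Leaving out MPN replicate 1, which the file headers place in another sequencing run than the other 5 libraries, is also the comparison within 1 run. There 7 of the 10 genes fell, the 5 named above with Gbp2 and Igtp, beside 757 of all 12223 tested genes. MPN replicate 1 was the lowest MPN mouse for 9 of the 10 genes, so leaving it out raised their MPN means. The term for sex rests on the Xist level, which marked 2 AML mice and no MPN mouse as female. It thus compares AML replicate 3 alone with the MPN mice. With it the calls of Gbp6 and Iigp1 ended, and those of Gbp4, Irgm1 and Irgm2 did not. Over the alternative settings the limma adjusted p ran between 0.000265 and 0.00795 for Gbp4, between 0.00127 and 0.0181 for Irgm1 and between 0.00511 and 0.0488 for Irgm2. It ran between 0.00242 and 0.0606 for Gbp6 and between 0.00375 and 0.106 for Iigp1. Of the other 5 genes, Gbp2 (0.0340 to 0.328), Gbp5 (0.0345 to 0.414), Gbp7 (0.0361 to 0.643) and Igtp (0.0415 to 0.401) crossed the threshold under 1 or 2 settings and Gbp3 (0.113 to 0.870) under none.

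Markers of cells other than progenitors were detected. Of all tested genes, 10% fell and 20.1% rose, which stands beside each marker count here and in the next paragraph. The sums of macrophage, dendritic, neutrophil and monocyte, and B cell markers did not overlap between the groups, while those of T and NK and of erythroid markers did. For each list the 2 genes with the highest TPM in any library are named, and their order can differ within a group. The summed TPM of 9 macrophage markers was 78.4 to 189 in AML mice, against 396 to 526 in MPN mice; 8 fell, of which 2 had passed the filter through MPN mice alone, Cd68 and Csf1r reached the highest levels, and C1qa, C1qb, C1qc and Mertk were at 0 in at least 1 AML mouse. The sum over 9 dendritic markers was 161 to 586 in AML, against 1188 to 1449 in MPN, with 5 lower, 1 of them tested through MPN mice alone, and with Clec9a and Itgax reaching the highest levels. The sum over 10 neutrophil and monocyte markers was 7118 to 21336 in AML, against 30364.5 to 47312 in MPN, with 9 lower and with S100a9 and S100a8 reaching the highest levels. For B cells it was 27.2 to 36.6 in AML, against 76.6 to 101 in MPN, with 4 of 5 tested lower, Cd79b and Cd22 reaching the highest levels and Pax5 at 0 in an AML mouse. Of the 5 tested B cell markers, 3 had passed the filter through MPN mice alone, so their lower level was built into their passing.

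For T and NK cells, the main makers of interferon-gamma, the summed TPM of 15 markers was 292 to 490 in AML and 306 to 398 in MPN. That overlap rests on Nkg7, a cytotoxic granule gene that rose (363 ± 99.4 TPM in AML mice and 100.4 ± 14.5 TPM in MPN mice; log2 fold change 1.82, limma adjusted p = 0.00110). Without it the sum of the other 14 markers was 13.7 to 18.8 in AML, against 189 to 309 in MPN, a sum taken after the values were seen. In MPN mice most of that sum came from Klrd1 (139 ± 51.0 TPM), Cd8a (47.1 ± 9.65) and Cd4 (25.8 ± 14.4). Cd3d, Cd3e and Cd3g averaged 2.07, 2.49 and 3.53 TPM there. Which cells carried these transcripts was not tested. Of 13 tested markers 10 fell and 2 rose, Nkg7 and the granzyme gene Gzmb, and 7 of the 13 had passed the filter through MPN mice alone. Nkg7 and Klrd1 reached the highest levels and Cd3g was at 0 in an AML mouse. Erythroid markers summed to 47.6 to 279 in AML, against 185 to 379 in MPN, with 1 of 6 lower, Klf1, and with Tfrc and Klf1 reaching the highest levels; the Klf1 call ended when any one MPN mouse or AML replicate 2 was left out. Progenitor markers, with Mpo and Cd48 reaching the highest levels, summed to 2673 to 5856 in AML and 1891 to 2699 in MPN, and 4 of 6 rose. Kit itself was at 119 ± 17.3 TPM in AML mice and 147 ± 4.17 TPM in MPN mice and did not pass. The part of these cell types in the changes of the GTPase genes was not tested. Within the MPN group, replicate 2 had the highest level of all 10 GTPase genes. Its macrophage (396), neutrophil and monocyte (30364.5) and B cell (76.6) sums were the lowest, and its dendritic sum (1449) the highest. Its T and NK (306), erythroid (328) and progenitor (2055) sums lay in the middle. Within the AML group, replicate 2 was also highest for all 10 genes. Its macrophage (189), neutrophil and monocyte (21336), B cell (36.6), T and NK (490) and progenitor (5856) sums were the highest. Without Nkg7 the T and NK sum of that mouse (17.7) lay in the middle, between 13.7 and 18.8. Most of its progenitor sum came from Mpo alone (4468 TPM, against 1245 and 2017 in AML replicates 1 and 3). Its dendritic (479) and erythroid (114) sums lay in the middle. What these orders of 3 mice reflect was not tested.

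The order of levels within a group can be compared because TPM is scaled to length. In AML, Igtp (36.6 ± 5.70 TPM), Gbp3 (36.2 ± 20.2), Gbp7 (29.1 ± 4.06) and Irgm1 (26.1 ± 3.40) led, with ranges of neighbours that overlap. A gap without overlap separated Irgm1 from Gbp2 (12.2 ± 6.38 TPM), Irgm2 (10.7 ± 3.15) and Gbp5 (10.6 ± 7.96), although Gbp3 reached down into the ranges of Gbp2 and Gbp5. Another gap separated these from Iigp1 (0.870 ± 0.150 TPM), Gbp4 (0.457 ± 0.336) and Gbp6 (0.130 ± 0.070). In MPN, Irgm1 led at 106 ± 38.5 TPM, followed by Igtp (67.0 ± 37.2), Gbp2 (39.7 ± 26.5), Irgm2 (35.5 ± 13.0) and Gbp4 (29.8 ± 19.0). Gbp3, Gbp5, Iigp1 and Gbp7 came next, and each neighbour overlapped the one before it. Gbp6 had the lowest mean, 3.18 ± 2.12 TPM, with a range below that of Gbp7 but overlapping that of Iigp1. By mean level Gbp4 ranked 9 among the 10 genes in AML and 5 in MPN. All values are means with the SD over 3 mice.

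AML replicate 2 was the highest AML mouse for all 10 genes and MPN replicate 2 the highest MPN mouse for all 10. Over all tested genes these held for 28.0% and 27.2%, and both together for 7.58%. This was noticed after the values were seen, and the shared number pairs no mice. MPN replicate 1 was the lowest MPN mouse for 9 genes and AML replicate 1 the lowest AML mouse for 7. The ratio of the highest to the lowest mouse ran over the AML mice between 1.27 for Gbp7 and 5.61 for Gbp5, with a median of 2.13, and over the MPN mice between 1.64 for Gbp3 and 10.8 for Iigp1, with a median of 2.67. Over all tested genes the medians were 1.37 in AML and 1.27 in MPN. The summed TPM of all 10 genes was 124, 217 and 148 in AML mice, against 221, 572 and 325 in MPN mice.

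**Figure D3:**
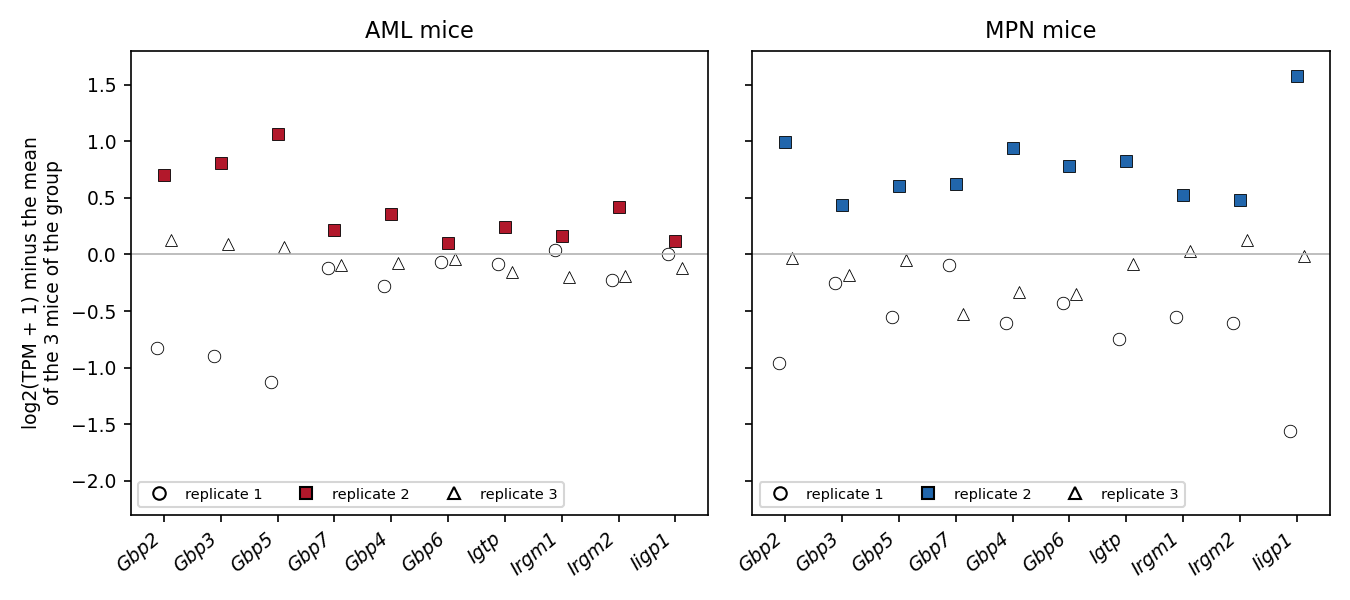
Log2(TPM + 1) of each GTPase gene in each mouse relative to the mean of that mouse's own group, AML mice left of MPN mice. In both groups the points of replicate 2 lie highest for all 10 genes.

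The relatives of the 10 genes in the GBP, IRG, giant GTPase and Mx families moved in the same direction where they passed the test. Of 24 listed relatives, 22 were in the table and 20 were tested. Of these, 10 fell, none rose and 10 did not pass, beside 10% lower and 20.1% higher of all tested genes. At an unadjusted limma p under 0.05, 13 were lower and again 0 higher, beside 1806 lower and 3520 higher of all 12223 tested genes. Of the 20, 3 passed the filter through MPN mice alone, Gbp8, Gbp10 and Gm12185, so a lower level was built into their passing. On chromosome 5, Gbp8 averaged 0.597 ± 0.266 TPM in AML mice and 21.1 ± 8.47 TPM in MPN mice (log2 fold change -3.73, limma adjusted p = 0.000307). Gbp9 averaged 1.24 ± 0.811 TPM in AML mice and 45.7 ± 10.99 TPM in MPN mice (log2 fold change -4.42, limma adjusted p = 0.000224). Gbp10 averaged 0.040 ± 0.010 TPM in AML mice and 2.64 ± 2.08 TPM in MPN mice (log2 fold change -1.66, limma adjusted p = 0.0132), and did not pass once sex was in the model (limma adjusted p = 0.103). The annotated spans of Gbp8 and Gbp9 overlap that of Gbp4.

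Among the IRG relatives, the effector Tgtp2 averaged 26.3 ± 3.50 TPM in AML mice and 111 ± 62.3 TPM in MPN mice (log2 fold change -1.87, limma adjusted p = 0.0116), and its call ended without MPN replicate 3 (limma adjusted p = 0.0528) and with a term for sex (limma adjusted p = 0.0660). Tgtp1, its near-identical neighbour, did not pass (log2 fold change -1.27, limma adjusted p = 0.131). Summed over the pair, because reads could be split between them, the level was 49.8, 48.0 and 42.7 TPM in AML mice, against 71.4, 300 and 158 TPM in MPN mice, without overlap. Gm5431 (log2 fold change -3.12), Gm12185 (-1.91), 9930111J21Rik1 (-1.87) and 9930111J21Rik2 (-2.47), which lie in the same chromosome 11 cluster as Irgm1, also fell. Ifi47 of that cluster did not pass (-0.50), nor did Gm12250 beside Igtp (-0.83), Gm4951 (-1.64), F830016B08Rik (-0.61) or Irgq (0.33). The antiviral Mx GTPases fell, Mx1 with a log2 fold change of -1.86 (limma adjusted p = 0.0149) and Mx2 with -2.27 (limma adjusted p = 0.000865). The Mx1 call ended without MPN replicate 2 (limma adjusted p = 0.0528), and with a term for sex those of Mx1 (limma adjusted p = 0.176), Gm12185 (0.0773) and 9930111J21Rik2 (0.0660) ended. The giant GTPases Gvin1 (-1.40), Gm4070 (-0.61) and Gm1966 (-0.72) did not pass; in the second deposited table, of RPKM values (a read-based level per gene length and per library total), Gvin1 and Gm4070 fell (log2 fold changes -1.13 and -1.11). Without MPN replicate 1, Tgtp1, Ifi47, Gm12250, Gm4951 and Gvin1 passed as well, Gvin1 passed also without AML replicate 1, and F830016B08Rik passed without MPN replicate 3.

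Gbp2b on chromosome 3 is uncertain. It averaged 6.53 ± 5.54 TPM in AML mice and 1.66 ± 1.46 TPM in MPN mice (log2 fold change 1.08, limma adjusted p = 0.361), but the log2 fold change was -1.01 in the RPKM table (limma adjusted p = 0.122). Without AML replicate 1 it rose in AML (log2 fold change 2.14). Gbp2 shares 0.983% of its 75-base windows with Gbp2b. Summed TPM of the pair was 5.95, 27.5 and 22.6 in AML mice, against 18.1, 72.1 and 33.9 in MPN mice, with overlap.

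The 10 genes lie in 4 clusters, apart from Iigp1 at chr18:60376027-60392634. Before Iigp1 on the same strand lie the relatives Gm4951 (chr18:60212080-60247820) and F830016B08Rik (chr18:60293380-60303016), neither of which passed the main test. Positions are those of GENCODE M21 on GRCm38, and the clusters and the genes beside them were chosen after values were seen. On chromosome 3, plus strand, Gbp5 (chr3:142493978-142522344), Gbp7 (chr3:142530342-142550149), Gbp3 (chr3:142560026-142573209) and Gbp2 (chr3:142620602-142638008) span 144 kb with Gbp2b. None of these passed the test. On chromosome 5, minus strand, Gbp4 (chr5:105115767-105139586) and Gbp6 (chr5:105270702-105293698) share 332 kb with Gbp8, Gbp9 and Gbp10, which all fell, and with Gbp11, which was under the filter on low values. The nearest tested gene outside that cluster on one side, Abcg3, an ABC transporter gene 31.4 kb away, fell as well, with 4.08 ± 3.47 TPM in AML mice and 59.5 ± 1.75 TPM in MPN mice (log2 fold change -3.87, limma adjusted p = 0.00239). On the other side Lrrc8b, a subunit of volume-regulated anion channels, rose (log2 fold change 1.03, limma adjusted p = 0.0282).

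On chromosome 11, Irgm1 (chr11:48861968-48871683, minus strand) begins a cluster of 235 kb, and Igtp (chr11:58199556-58207591) and Irgm2 (chr11:58199618-58222782), both on the plus strand, lie in a second one of 35.0 kb. Beside the first, Trim7 fell (log2 fold change -1.42, limma adjusted p = 0.0237) and Btnl9 rose (1.34, limma adjusted p = 0.0108). Beside the second, Mrpl22 (0.19) and Zfp692 (-0.15) did not pass. Beside the chromosome 3 cluster, Pdlim5 did not pass (-0.27) and Ccbl2, a kynurenine aminotransferase gene, rose (0.97, limma adjusted p = 0.00339). Trim7 lost its call without AML replicate 2 or any one MPN mouse, and Lrrc8b without AML replicate 1 or 2 or MPN replicate 2 or 3. With a term for sex the calls of Trim7, Lrrc8b and Btnl9 ended.

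**Figure D4:**
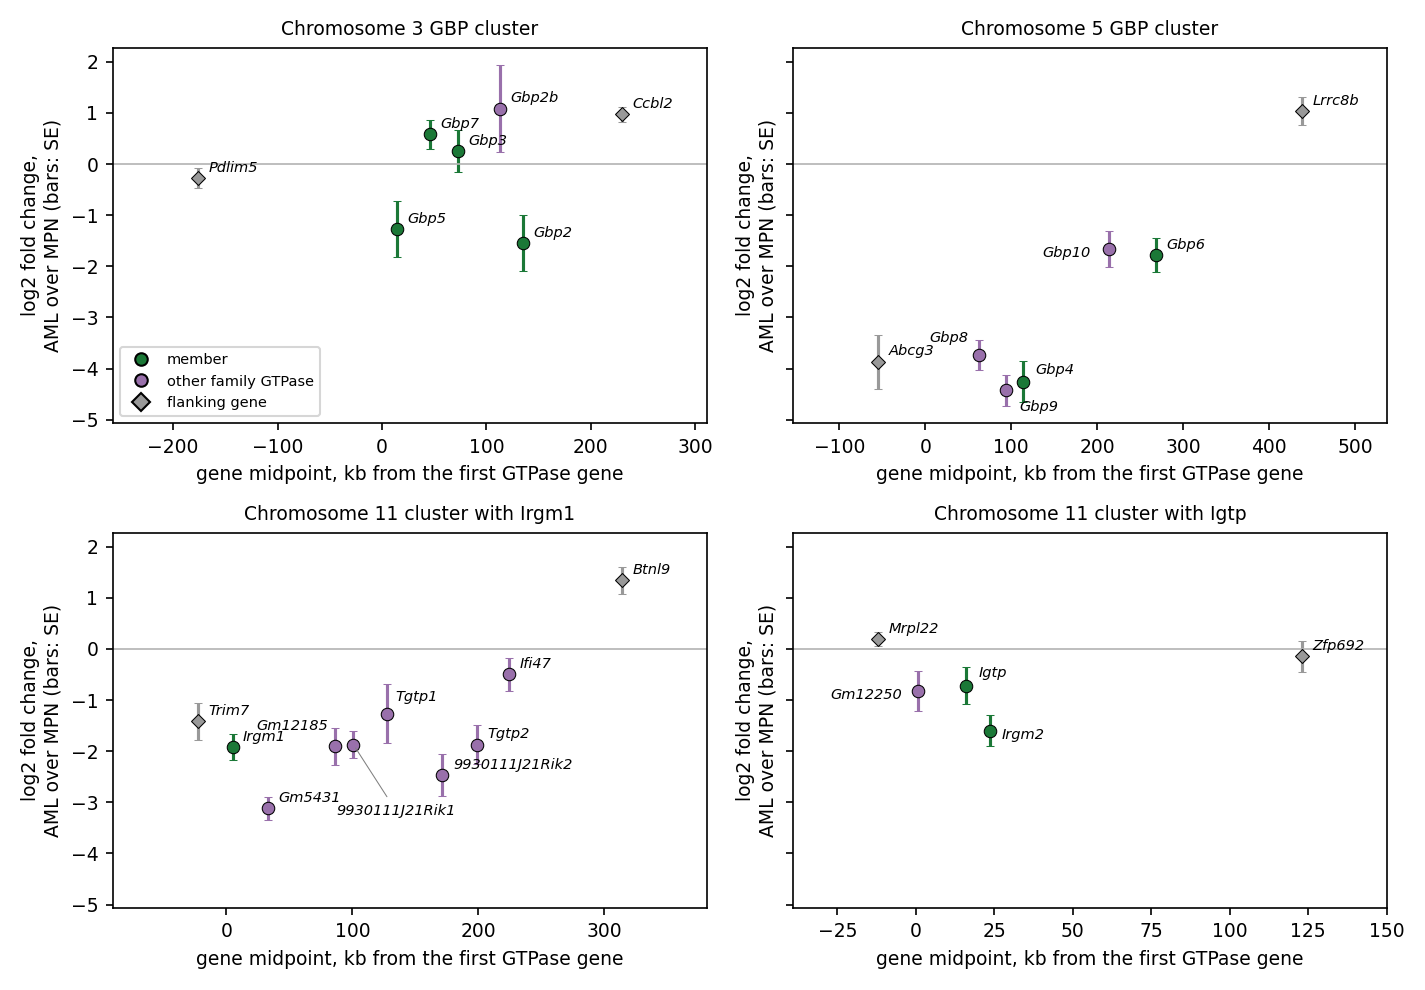
Log2 fold change (AML over MPN; bars, SE) against the midpoint of each gene in kb from the start of its cluster, with the listed genes, their relatives and the nearest tested gene on each side. The 5 GBP genes of the chromosome 5 cluster lie between -4.42 and -1.66, while those of chromosome 3 lie on both sides of 0.

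The genes that carry the interferon-gamma signal were compared in the same fit. Ifng, the ligand, was below the filter and listed at 0 TPM in all AML mice, against 0.13, 0.41 and 0.18 TPM in the MPN mice. Steps of the RPKM values gave 0 reads in each AML mouse, where a count of 0 allows up to 3 reads, against 8, 24 and 8 reads in the MPN mice. Of 4 other tested genes that drive its production, 1 fell, 1 rose and 2 did not pass. Il12a, a subunit of interleukin 12, rose (log2 fold change 1.49) and Il12b, the other subunit, fell (-2.31). Both are named after their values were seen. Of 4 receptor and kinase genes, 1 fell and none rose, beside 10% lower and 20.1% higher of all tested genes. At an unadjusted limma p under 0.05, 2 were lower and 0 higher, beside 1806 lower and 3520 higher of all 12223 tested genes. Ifngr2 averaged 39.2 ± 7.11 TPM in AML mice and 78.7 ± 13.3 TPM in MPN mice (log2 fold change -0.99, limma adjusted p = 0.00680), and with sex in the model neither Ifngr2 (limma adjusted p = 0.0962) nor Il12b (limma adjusted p = 0.0684) passed. Ifngr1 (-0.43), Jak1 (0.07) and Jak2 (-0.66) did not pass, and the sign of Jak1 flipped under several settings. Jak2 passed without AML replicate 3 (log2 fold change -0.96).

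Of 8 transcription factors of the response, 6 fell and none rose, also at an unadjusted limma p under 0.05. Of all tested genes, 10% fell and 20.1% rose at the adjusted threshold. At the unadjusted one, 1806 of the 12223 fell and 3520 rose. Irf1 had 46.0, 59.5 and 46.5 TPM in AML mice, against 96.3, 185 and 135 TPM in MPN mice (log2 fold change -1.40, limma adjusted p = 0.00531). Irf2 (-0.69), Irf9 (-1.83) and Stat2 (-1.74), the last 2 being parts of the complex that acts downstream of type I interferon, fell too. So did the activators of antigen presentation genes, Nlrc5 for class I (-1.40) and Ciita for class II (-2.70). Irf8 (-0.68), a factor of dendritic cell and monocyte lineages, and Batf2 (-0.54) did not pass, and Irf8 flipped to 0.01 without AML replicate 1. With a term for sex the calls of Irf2, Stat2 and Ciita ended (limma adjusted p = 0.0508, 0.0632 and 0.136).

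**Figure D5:**
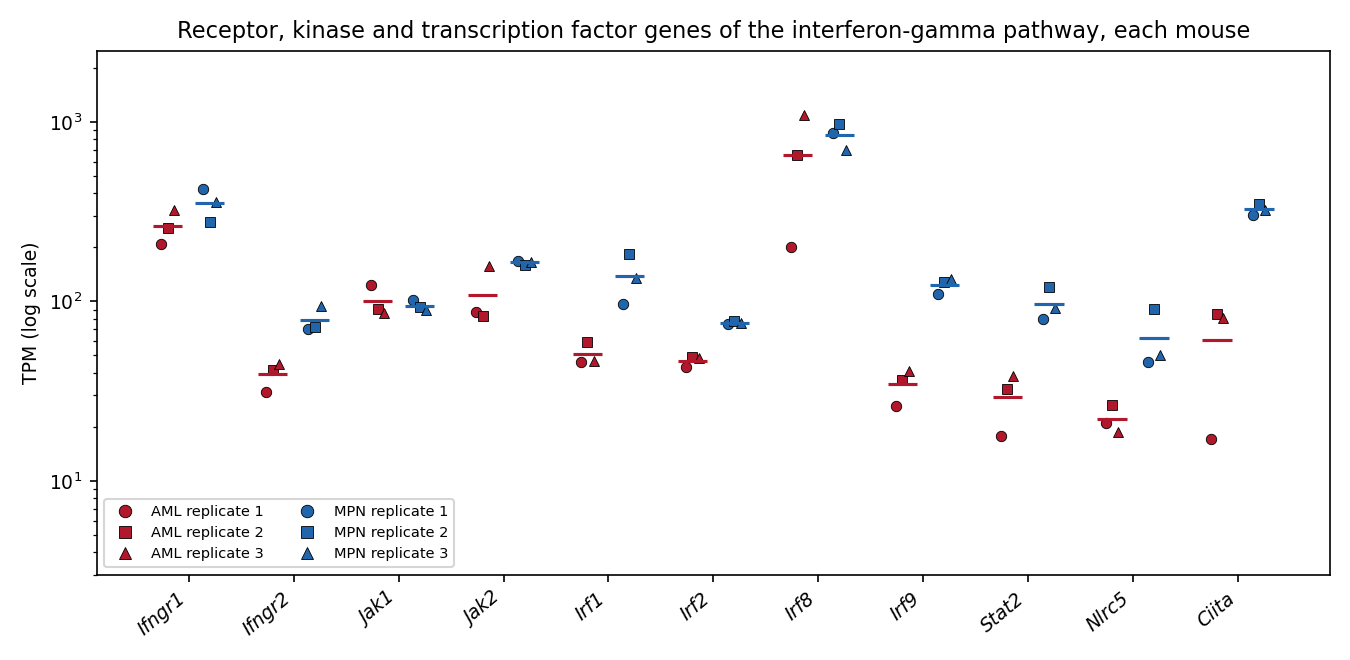
TPM per mouse on a log axis of genes of the interferon-gamma pathway, AML left of MPN, with a bar at each group mean. Ifngr2 and Irf1 have all AML mice below all MPN mice, while Jak1 overlaps.

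Of 24 other interferon-gamma targets, 21 were tested. Lower levels passed for 11 and a higher level for 1, with a median log2 fold change of -0.89. The 4 with the smallest p were Xaf1, a partner of the apoptosis inhibitor XIAP (-2.20), the ADP-ribosyltransferase gene Parp14 (-1.88), and the chemokines Cxcl9 (-5.18) and Cxcl10 (-2.44). Cxcl9 had 0.05, 3.83 and 1.31 TPM in AML mice, against 49.3, 139 and 79.2 TPM in MPN mice. Serpina3g, a protease inhibitor gene, rose, with 631 ± 256 TPM in AML mice and 196 ± 77.4 TPM in MPN mice (log2 fold change 1.70, limma adjusted p = 0.0149); it is named after its values were seen, and its call ended with a term for sex (limma adjusted p = 0.138). The 11 of 21 that fell stand beside the 10% of all tested genes, and the count was 7 without MPN replicate 2.

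Of 8 listed inhibitors of interferon signalling, of which Usp18 acts on the type I receptor, 3 fell and none rose. At an unadjusted limma p under 0.05, 1 was higher. Of all tested genes, 10% fell, 20.1% rose and 30.1% were called in all. Without adjustment, 1806 of the 12223 were lower and 3520 higher. Usp18, a negative regulator of the type I interferon receptor that is itself induced by interferon, averaged 2.82 ± 1.59 TPM in AML mice and 52.0 ± 14.3 TPM in MPN mice (log2 fold change -3.85, limma adjusted p = 0.000546). The phosphatase gene Ptpn6 (-0.39) and the SUMO ligase gene Pias1 (-0.36) fell slightly, and leaving out any single mouse ended both calls. Socs1, which blocks the JAK kinases, averaged 23.0 ± 9.64 TPM in AML and 10.5 ± 4.29 TPM in MPN, above the MPN mice in all AML mice, and did not pass (log2 fold change 1.06, limma adjusted p = 0.0605). Socs3 (0.42), Ptpn1 (0.15), Ptpn2 (0.24) and Ptpn11 (0.21) did not pass either.

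Of the autophagy and ubiquitin genes that work with these GTPases at vacuoles, all 16 were tested. Of these, 3 fell and 2 rose, 5 of 16 in all, a share near the 30.1% of all tested genes (10% lower, 20.1% higher), and the median log2 fold change was -0.02. Gabarapl1, a ubiquitin-like protein gene of the Atg8 family, rose (1.31), as did the autophagy receptor gene Tax1bp1 (0.85). Gabarapl2 of the same family fell (-0.46) and so did the ubiquitin ligase gene Trim21 (-1.01). The Gabarapl2 call ended in the RPKM table, and when any mouse other than AML replicate 3 was left out. With a term for sex the calls of Gabarapl2 and Tax1bp1 ended.

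Of 16 genes of the type I interferon response, which shares the ISRE with the interferon-gamma response, 16 fell, beside 10% of all tested genes. Their median log2 fold change was -2.88. Of the 16, 3 passed the filter through MPN mice alone, Ifit3 and Ifi44 among them, so a lower level was built into their passing. The 4 with the smallest p were Ifi27l2a (-6.50), Ifit3 (-4.43), Ifi44 (-4.18) and Oas2 (-3.71). Of the 3 receptor genes, Ifnar1 fell (-0.51), a call that ended without MPN replicate 1 or 2 and with a term for sex, and Ifnar2 (-0.14) and the kinase gene Tyk2 (-0.28) did not pass.

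Outside all these lists, the 5 genes whose profile over the 6 libraries was nearest to the mean profile of the 10 GTPase genes were Gpr33, Serpinb6b, Ly6i, Sct and H2-T22. Nearness was the root mean square difference of centred log2(TPM + 1) values, which was 0.217 for Gpr33 and 0.284 for H2-T22, beside a median of 0.984 over 12055 genes. Gpr33 had 4.61, 10.4 and 10.1 TPM in AML mice, against 17.2, 48.4 and 21.1 TPM in MPN mice.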

How the data were processed

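The RNA came from 1 mouse per library, 3 mice in each group, and replicate numbers, given in accession order, pair none. Per the labels' protocols, polyadenylated RNA was made into stranded TruSeq libraries and read as pairs. The deposited TPM table has 1 row per gene symbol and 1 column per mouse and, per the file headers, holds gene-level RSEM output. The RPKM values, deposited by the authors per Ensembl identifier, hold 1 added read per gene, as the low values show. The submitters' processing notes name TopHat2, RSEM, Bowtie2, mm9 and mm10; their assignment to the tables is not stated there. Depth cannot be read from TPM. Low RPKM values lay within 0.05 of whole multiples of the step of 1 read, and gave a relative depth of 1.29, 1.00 and 0.739 for the AML libraries and 1.04, 0.986 and 0.936 for the MPN libraries; between 11780 and 12034 genes reached 1 TPM. Nothing tells whether mice shared a litter or a day.

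The members and lists were chosen with earlier results of these data known. A gene entered the test if 3 or more libraries reached 1 TPM. The fit used limma 3.58.1 in R 4.3.3 on log2(TPM + 1), pseudocount 1, a mean-variance trend, and no covariate; fold changes on that scale understate those of low genes. On simulated data for this comparison, with 12223 genes, 72% of 100 genes with a 2-fold change and 98% of 100 with a 4-fold change were recovered, beside 10 false calls. The changed genes had a mean log2(TPM + 1) above 2, and the spread was drawn around the median over all genes. The 10 GTPase genes spread more, with a median ratio of highest to lowest MPN mouse of 2.67, beside 1.27 over all tested genes. The recovered shares need not hold for them. Named were the 10 genes, all tested relatives, receptor, transcription factor and inhibitor genes, Ifng, the 4 smallest p of the target, autophagy and type I lists, marker sums with the 2 genes highest in any library and those at 0, and the 5 nearest profiles; Serpina3g, the cluster neighbours and other exceptions were chosen after their values were seen. Of 25991 identifiers in the RPKM table, 25213 could be given a symbol, and 7 of the 10 genes were tested. Promoters come from RefSeq, GRCm38.p6, and shared windows of 75 bases from GENCODE M21 transcripts. The 27 symbols that had become dates were tested, not named. A gene of the signalling list is not reported here. Alternatives were other pseudocounts, filters, scalings, the RPKM table, limma without trend or with array weights, a term for sex and leaving out each mouse.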

Additional observations from a re-analysis of the deposited data

How the results depend on the processing

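The tested genes that the text names were refitted under 16 alternative settings, or under those that still tested them (Gbp6 and Iigp1 under 14, Gbp5 under 15). Of 1607 values over 102 genes, 1468 kept their direction and side of the threshold, 99 lost the call, 24 gained it and 16 changed sign. The count of GTPase genes lower in AML was 5; it was 3 of 8 tested with a filter at 5 TPM, which removes Gbp6 and Iigp1, 3 of 7 in the RPKM table, where fewer were tested, and 3 with a term for sex. That term also gave 1208 called genes in place of 3678, 5 relatives and 6 other targets lower. It compares male mice only, AML replicate 3 against MPN, and assumes that this mouse varies like the others. Leaving out 1 mouse gave 4 to 7 GTPase genes lower and 0 to 1 higher, 9 to 15 relatives lower, 7 to 12 other targets lower and 2009 to 3705 called genes (2277, 2009 and 2280 without MPN replicate 1, 2 or 3). Signs changed for Jak1 (median scaling -0.0185, quantile normalization -0.00799, array weights -0.0239, term for sex -0.137), Irf8 (term for sex 0.388), Gbp2b (RPKM -1.01), Gm4070 (array weights 0.246), Cd79b (array weights 0.1201), Tyk2 (term for sex 0.436) and Pdlim5 (term for sex 0.0879). Leaving out single mice gave ranges across 0 for Jak1 (-0.0940 to 0.167), Irf8 (-1.21 to 0.0104), Ptpn1 (-0.0485 to 0.299), Gbp3 (-0.149 to 0.701), Tyk2 (-0.641 to 0.128) and Zfp692 (-0.457 to 0.0847); the cause was not tested. Gbp2 passed without MPN replicate 1 (log2 fold change -2.02) and with array weights (-1.88), and Gbp5 without AML replicate 2 (-1.80). No paired analysis was possible because the replicate numbers follow accession order and pair no mice. Median scaling moved the median of all genes by -0.08 on the log2 scale.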
